A study of Homo sapiens with 4 samples.

Results

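The MYC and PVT1 neighbourhood in chromosome band 8q24.21 was described through ELF5 peaks on chromosome 8 of hg19. Their summits lie between 127800 and 129700 kb. This window of 1.9 Mb is bounded by position and not by signal, but it was chosen with earlier results of these data known. The window held 73 of the 115384 peaks in the list. MYC lies on the plus strand at 128748.3 to 128753.7 kb, and PVT1 on the same strand at about 128807 to 129113 kb. The window was divided into the desert upstream of MYC (5 peaks), MYC with 10 kb on either side (6 peaks), the interval between that stretch and PVT1 (3 peaks), the PVT1 body (48 peaks) and the sequence downstream of PVT1 (11 peaks).

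The peaks come from ChIP-seq of ELF5 in T47D, an estrogen-receptor-positive cell line of human breast carcinoma that the labels call luminal A, with no treatment and no edit named, grown in RPMI with serum and insulin. The series held 3 ELF5 ChIP replicates made with antibody sc-376737 and 1 input sample from the same line, in the same medium. Only 1 list of peaks was analysed, and it carries no values of single replicates, so no replicate spread can be attached, no difference was tested, and all comparisons describe this list. Separate cultures are not named in the labels, and no source used here states whether all 3 replicates entered the list.

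ELF5 is an ETS-family transcription factor of luminal progenitor and alveolar cells of the mammary gland. MYC encodes a transcription factor that drives growth and proliferation, and it is among the genes most often gained or amplified in breast cancer. It stands beside a large gene desert whose distal enhancers are known to contact its promoter. PVT1 is a long non-coding RNA gene that is often gained together with MYC, and its promoter has been described in breast cancer cells as a boundary that limits how far enhancers inside PVT1 act on MYC. In the RefSeq gene order of assembly GRCh38.p14, from which no coordinate was used, POU5F1B is the only protein-coding gene between LRATD2 and MYC, the lncRNA gene CASC11 stands next to MYC on its upstream side, and GSDMC is the next protein-coding gene after MYC.

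ELF5 peaks were crowded at MYC and inside PVT1 and nearly missing from the desert upstream of MYC. The PVT1 body took up 306 kb of the window and held 48 of its 73 peaks (65.8%), a density of 157 peaks per Mb (95% counting interval 116 to 208). The upstream desert took up 938 kb and held 5 peaks, a density of 5.33 per Mb (1.73 to 12.4). Over chromosomes 1 to 22 and X the list held 38.0 peaks per Mb, so PVT1 stood at 4.13 times and the desert at 0.140 times that density. That density is a mean over clustered peaks and lies above most of the sequence: of all tiles of 100 kb on these chromosomes, 35.5% held 3 peaks or more. With only the peaks at −log10 q of 5 or more, PVT1 stood at 5.39 times and the desert at 0.306 times the density of the list cut in the same way. The sequence downstream of PVT1 lay between them, with 18.7 peaks per Mb (9.35 to 33.5). Crowding was not particular to PVT1: MYC with its 10 kb flanks, 25.4 kb in all, held 236 peaks per Mb (86.7 to 514). That value rests on 6 peaks, and its interval overlapped that of PVT1. The interval between that stretch and PVT1 held 69.3 per Mb (14.3 to 202). Intervals of a density are exact Poisson intervals of the peak count. They cover counting error only and treat peaks as independent, which neighbouring peaks are not. Densities use full lengths on hg19, assembly gaps included.

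Averaged over its 1.9 Mb, the window was about as dense as the full list. It held 38.4 peaks per Mb, against 38.6 in the rest of chromosome 8 and 25.2 in the rest of band 8q24.21. The stretch of equal length just before the window held 55 peaks, and the one just after it held 51. At −log10 q of 5 or more, the window held 20.5 peaks per Mb, against 14.0 over chromosomes 1 to 22 and X. The position of the edges did not split a cluster on the upstream side, where the first summit inside stood 33.2 kb from the edge and the nearest outside 43.1 kb from it, with folds of 4.04 and 3.25. On the downstream side the last summit inside stood 195 kb from the edge, with a fold of 2.75, and the first outside 1.41 kb from it, with a fold of 3.81.

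**Figure D1:**
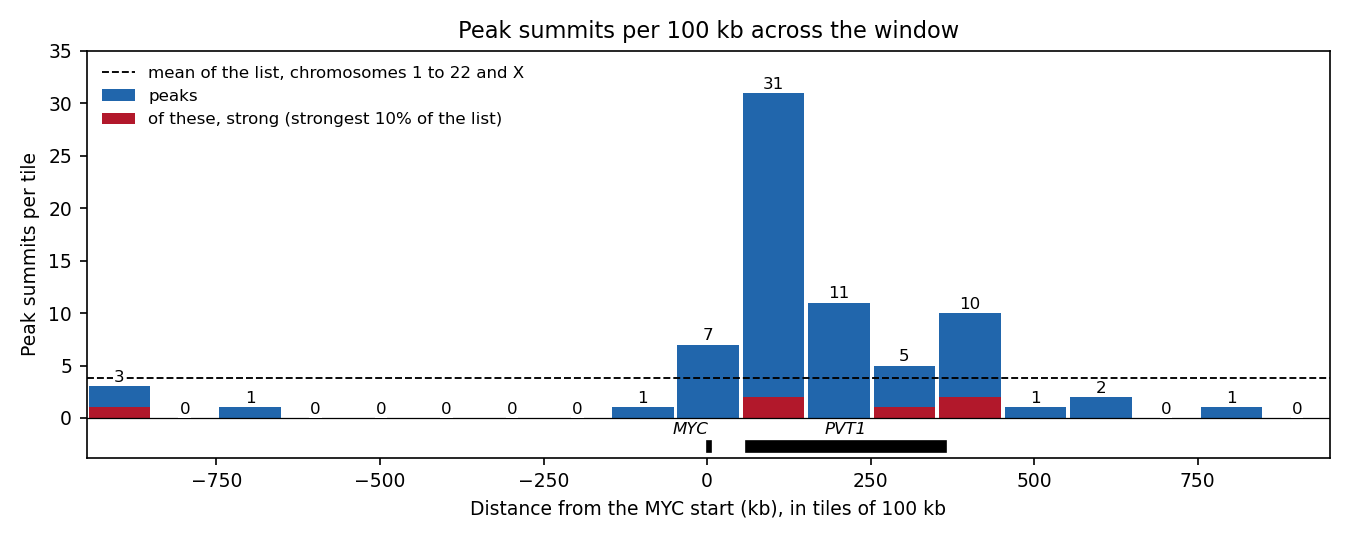
Number of ELF5 peak summits (bars, with those in the list's strongest 10% by fold in red) in each of the 19 tiles of 100 kb across the window, by distance from the MYC start in kb, with the mean of the list (dashed line) and MYC and PVT1 drawn to scale as black bars. The tile that begins 51.7 kb after the MYC start holds 31 peaks, and 5 tiles in a row upstream of MYC hold none.

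Of the window's 19 tiles of 100 kb, the fullest is named here because it held the most peaks. The share of all tiles beside it is a description only. The tile from 51.7 to 151.7 kb past the MYC start, which covers the start and the first part of PVT1, held 31 peaks, and 1.48% of the 30353 such tiles of chromosomes 1 to 22 and X held as many. The next tile held 11, and 3 of the 19 tiles of the window (15.8%) held at least 10 peaks, where 11.3% of all tiles did. No peak was found in 8 of the 19 tiles (42.1%), where 36.7% of all tiles held none, assembly gaps included, so both shares were near those of the list. The longest distance between neighbouring summits, 671 kb, ran from 738 kb to 67.0 kb upstream of the MYC start. Of 114327 distances between neighbouring summits outside centromeric, variable and stalk bands, 279 (0.244%) were as long, 6 of them on chromosome 8. This share counts distances, most of them short, and not sequence, so the share of sequence in such stretches is larger. The distance was also picked as the longest of the window. Inside the PVT1 body a summit had its next neighbour at a median of 3080 bp, against 4186 bp over the list.

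The strongest ELF5 binding of the window lay neither at MYC nor at the start of PVT1 but downstream of PVT1 and inside it. A peak is called strong here when its fold, the authors' enrichment of ChIP over local background, is in the highest 10% of the list, which begins at 11.99. The window held 6 strong peaks (8.22%, exact binomial 95% interval 3.08 to 17.0), where 10.0% of the list is strong. Of these, 2 lay downstream of PVT1, 3 in the PVT1 body and 1 in the upstream desert. The median fold of the 73 peaks was 4.08 (exact binomial interval of the median 3.35 to 5.17), against 3.66 over the list. A larger part of the window's peaks than of the list had a −log10 q of 5 or more: 39 of 73 (53.4%), where the list had 36.7%. This share also depends on depth, which was higher at the window's peaks and is given below.

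**Figure D2:**
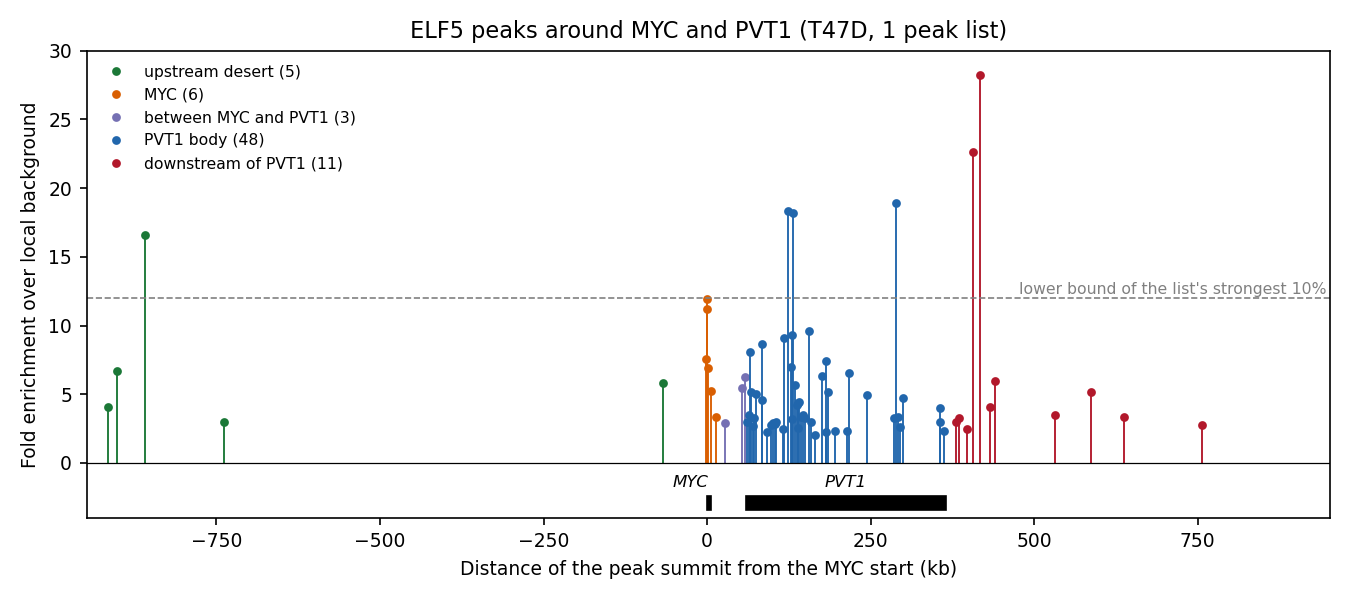
Fold enrichment over local background of the 73 ELF5 peaks (stems, coloured by segment, with the number of peaks in the legend) against the distance of the summit from the MYC start in kb, with MYC and PVT1 to scale below. The dashed line is the lower bound of the list's strongest 10%, a fold of 11.99, which 6 peaks pass, and the tallest stems stand beyond the end of PVT1.

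At MYC, ELF5 peaks surrounded the start of the gene. From 2.13 kb before the start to 2.99 kb after it, 4 peaks followed each other with no more than 1 kb between them, and together they covered 4041 bases (79.0%) of that 5.12 kb stretch. The peak whose summit is nearest to the start, 0.345 kb before it, ran from 128747776 to 128748863 and covered the start itself. Its fold was 11.2 (8.57 to 14.4), from a pileup of 58 fragments over a background of 3.79, both inferred from the authors' fold and p. To give the fold, the pileup is scaled by 0.910, and 1 is added to it and to the background. The interval after a fold is the exact Poisson 95% interval of the pileup with the background held fixed, and covers counting error only. The peak just before it, from 128747162 to 128747667 with its summit 0.757 kb before the start, had the highest fold at MYC, 11.9 (9.24 to 15.1), and lay just under the bound of the strong peaks. The intervals of these neighbours overlap, so which of them was stronger was not resolved.

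The other peaks at MYC had lower folds, though some of their intervals overlapped those of the peaks just described. The peak farthest upstream in the group ran from 128746171 to 128746525 with a summit 1.91 kb before the start, and had a fold of 7.59 (5.99 to 9.50). The peak inside the gene ran from 128749195 to 128751286, and its summit was 1.68 kb past the start. At 2092 bp it was the broadest peak of the window, and the only one of at least 2000 bp, a width reached by 0.448% of the list, with a fold of 6.88 (5.36 to 8.71). This broad peak and the one over the start covered 2655 bases, 49.2%, of the MYC gene. Both the farthest upstream and the broad peak had a background of 8 fragments, so their pileups of 74 and 67 fragments were as deep as those of the peaks with higher folds, 65 and 58. A peak 0.426 kb past the end of the gene, from 128754030 to 128754326, had a fold of 5.23 (3.46 to 7.62). The last, from 128761227 to 128761384 and 7.62 kb past the end, was narrow and had a fold of 3.35 (2.01 to 5.30). Exons and untranslated regions were not assigned, since no annotation of hg19 was used here.

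**Figure D3:**
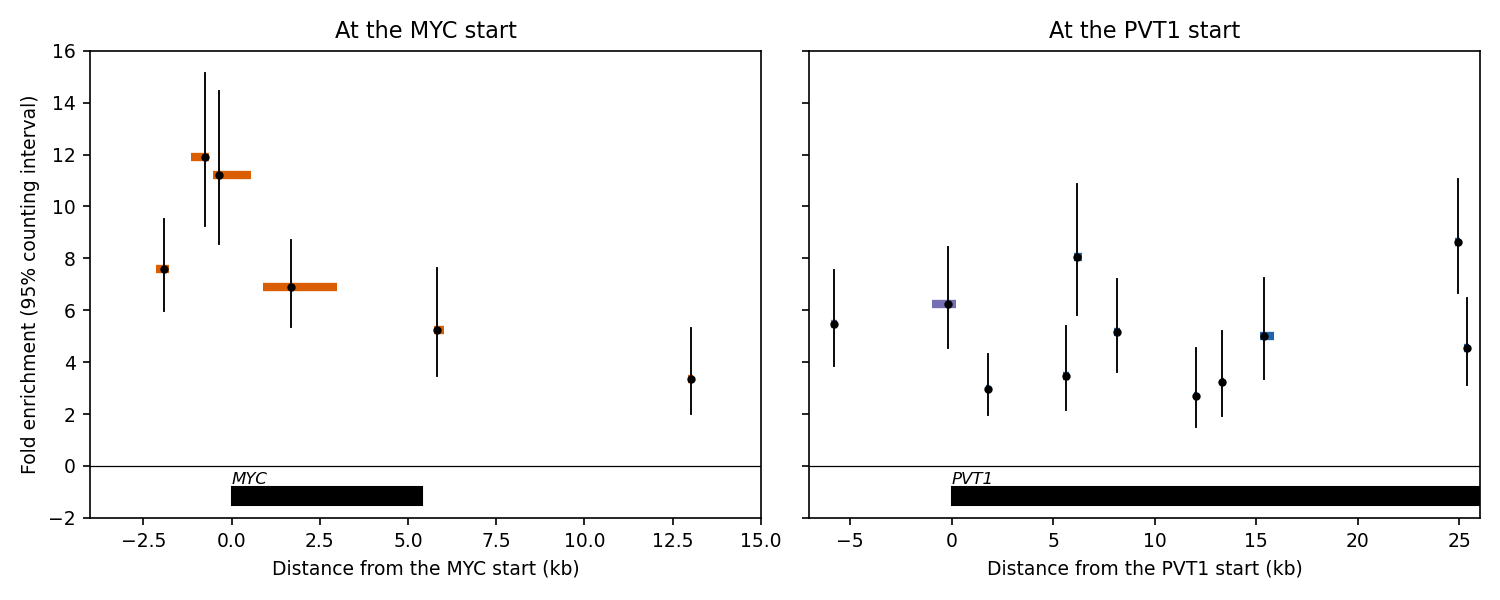
ELF5 peaks around the start of MYC (left) and of PVT1 (right), placed by distance from the start in kb. Coloured bars show the extent of each peak at the height of its fold, black points the summits and vertical lines the 95% counting intervals of the fold, and the black bar is the gene, which for PVT1 runs on past the right edge. The pair just before the MYC start reaches folds of 11.9 and 11.2, while the peak at the PVT1 start reaches 6.25.

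Between MYC and PVT1 there were 3 peaks, and 1 of them sat at the PVT1 start. That peak ran from 128806037 to 128807198, and its summit was 0.172 kb before a start known here only to the kb, so which side of the start the summit is on was not resolved. It was 1162 bp wide with a fold of 6.25 (4.53 to 8.42), and no other peak in the window but the broad one in MYC was wider. Its interval lay below that of the peak over the MYC start, 8.57 to 14.4. A peak 5.80 kb before the PVT1 start, from 128801080 to 128801340, had a fold of 5.47 (3.86 to 7.55). The third, 22.1 kb past the end of MYC, from 128775659 to 128775890, had a fold of 2.87 (1.83 to 4.32).

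Inside PVT1 the peaks gathered towards its start. The first 102 kb of the body held 31 of the 48 peaks, the next 102 kb held 9 and the last 102 kb held 8. With peaks joined where their edges were within 10 kb, the window had 22 regions, of which 5 had at least 3 peaks and together held 52 peaks. The largest of them had 22 peaks over 69.3 kb, from 57.2 to 127 kb past the PVT1 start. The next had 16 peaks over 52.0 kb, from 5.92 kb before the PVT1 start to 46.1 kb past it, and none of its peaks was strong, with folds from 2.22 to 8.65. The 6 peaks at MYC formed a region of their own, 15.2 kb long. A region of 5 peaks lay 226 to 241 kb past the PVT1 start, and the last, of 3 peaks with folds up to 4.02, lay close to the end of the gene. In fold the peaks of the body were near the list: 3 of 48 were strong (6.25%, exact binomial interval 1.31 to 17.2), where 10.0% of the list is. The median fold was 3.48 (3.002 to 4.98), against 3.66 over the list. By q and depth they stood higher. A −log10 q of 5 or more was reached by 23 of 48 (47.9%), against 36.7% of the list. Their median pileup was 24 fragments against 16, over a median background of 4.66 against 3.11.

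The strong peaks of the PVT1 body stood in 2 of these regions. The peak with the highest fold, 18.9 (15.5 to 22.9), ran from 129037261 to 129037843, 230 kb past the PVT1 start, and rested on 103 fragments over a background of 4.01. The other strong peaks lay 7.07 kb apart in the region of 22 peaks. The first of them, 65.4 kb past the start, from 128872162 to 128872715, had a fold of 18.3 (14.9 to 22.3) from a pileup of 98 over a background of 3.92. The second, 72.4 kb past the start, from 128879215 to 128879890, had a fold of 18.2 (15.8 to 20.9) from a pileup of 199 over a background of 9, the highest background of any peak in the window. The folds of these neighbours could not be ranked, but the counting interval of 199 fragments, 172 to 229, lay above that of 98, 79.6 to 119. Next came a peak 97.1 kb past the start, at 128903998 to 128904334, whose fold was 9.58 (7.38 to 12.2), and then a peak 71.1 kb past it, at 128877961 to 128878429, whose fold was 9.32 (7.01 to 12.2).

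Downstream of PVT1 the peaks lay near the gene, and the strongest of the window were among them. The first 100 kb past the end held 7 of the 11 peaks, and the remaining 487 kb held 4, none of them strong. The strongest peak ran from 129165260 to 129165818, 52.5 kb past the end of PVT1 and 417 kb past the MYC start. Its fold was 28.2 (24.1 to 32.9), and 1.79% of the list had a higher fold. The second ran from 129154036 to 129154616, 41.3 kb past the end, with a fold of 22.7 (19.8 to 25.8) that 3.39% of the list exceeded. The summits of this pair were 11107 bp apart and their intervals overlapped. The second had the deeper pileup, 223 fragments over a background of 8, against 164 over 4.32, and it had the smallest p of the window, with −log10 p of 202 against 169. The next in this segment were far weaker, with folds of 5.99 (4.41 to 7.97) for a peak 76.0 kb past the end, 5.17 (3.61 to 7.19) for one 222 kb past it and 4.08 (2.74 to 5.86) for one 67.7 kb past it.

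**Figure D4:**
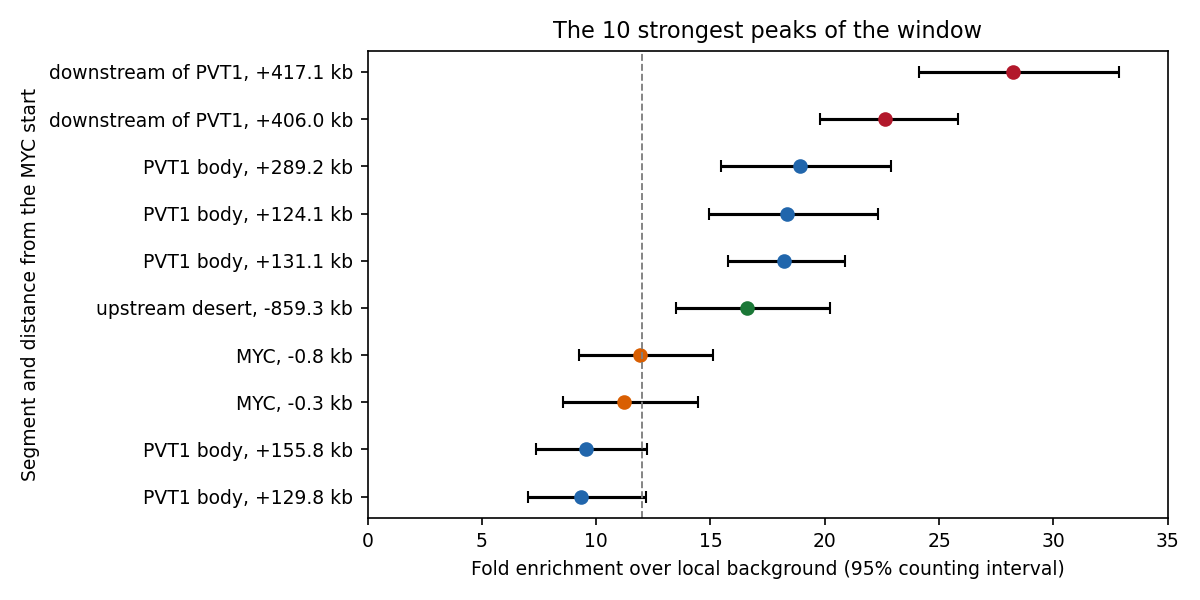
The 10 peaks of the window with the highest folds, from the strongest at the top, with the 95% counting interval of each fold (bars) and the lower bound of the strong peaks at 11.99 (dashed line). Labels give the segment and the distance of the summit from the MYC start in kb, and the pair downstream of PVT1 has folds of 28.2 and 22.7, against 11.9 and 11.2 for the pair at MYC.

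The interval of the strongest peak, 24.1 to 32.9, lay above those of all peaks of the window except its neighbour 41.3 kb past PVT1. The strongest MYC peak, at 9.24 to 15.1, lay below the pair downstream of PVT1 and below the PVT1 peaks 230 and 72.4 kb past its start, and its interval overlapped that of the PVT1 peak 65.4 kb past the start, 14.9 to 22.3, and that of the strong peak of the upstream desert, 13.5 to 20.2.

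The desert upstream of MYC held a strong peak at its far end. It ran from 127888847 to 127889131, 859 kb before the MYC start, and had a fold of 16.6 (13.5 to 20.2) in a width of 285 bp, the narrowest of the 6 strong peaks, and rested on 96 fragments over a background of 4.32. A pair of weaker peaks stood farther from MYC, 902 and 915 kb before it, with folds of 6.66 (4.41 to 9.70) and 4.04 (2.77 to 5.71). A peak 738 kb before MYC had the smallest width in the list, 135 bp, shared by 6 of the 73 members and 9.27% of the list, and a fold of 2.95 (1.52 to 5.30) from a pileup of 9, the lowest in the window. After it came the 671 kb without a summit. The nearest peak to MYC from this side stood 67.0 kb before the start, at 128681010 to 128681472, and its fold was 5.81 (4.35 to 7.62). Of the 5 desert peaks, 4 had a −log10 q of 5 or more, where 36.7% of the list had.

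**Figure D5:**
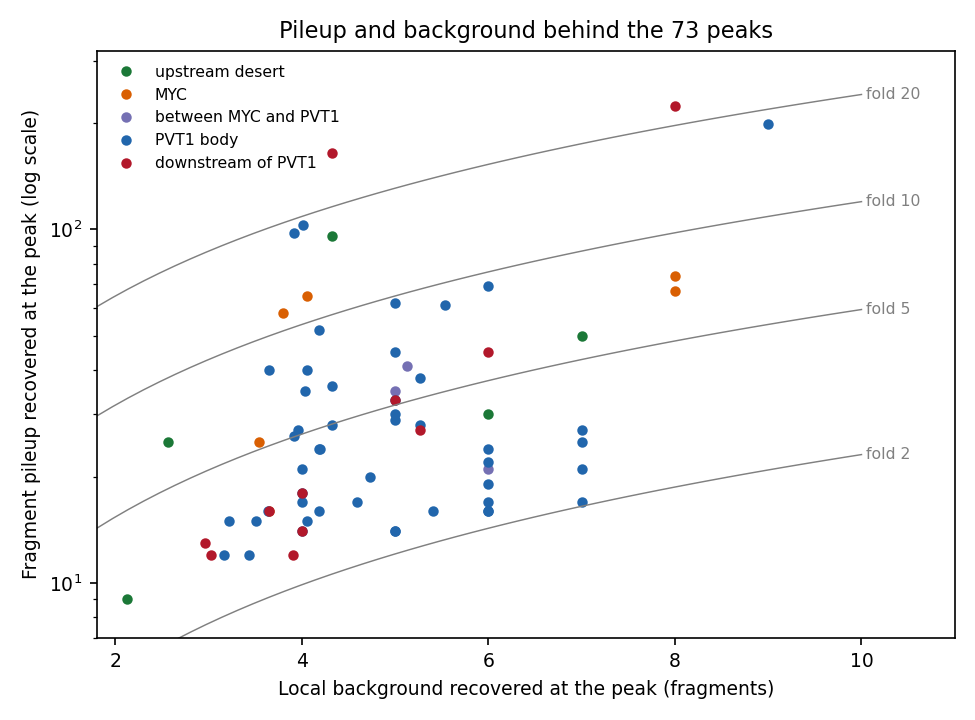
Fragment pileup (log scale) against local background, both recovered from the authors' fold and p, for the 73 peaks coloured by segment, with grey lines of equal fold. The pileup is drawn before the scaling by 0.910 that precedes the fold. Some peaks share both values and hide each other, and the peaks with pileups of 223 and 199 stand over backgrounds of 8 and 9.

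Local background was high at the peaks of the window, which bears on how their folds are read. It is known only at peaks, and so not in the stretches without them. The background recovered at the 73 peaks had a median of 4.32 fragments, against 3.36 over chromosome 8 and 3.11 over the list. It was at least 5 at 33 of the 73 peaks (45.2%), where 16.9% of the list was. In the PVT1 body the median was 4.66, at MYC 3.92, and in the stretches of equal length before and after the window 3.85 and 3.78. For a given pileup, a higher background gives a lower fold and a larger p. At a given fold, a deeper pileup over a higher background gives a smaller p. The median pileup was 25 fragments at the window's peaks, against 16 over the list. Shares and densities at −log10 q of 5 or more therefore depend on depth as well as on fold. Copy number is not given in these data, and its part in the number or strength of peaks was not tested. The 23 PVT1 peaks with −log10 q of 5 or more made 75.2 per Mb.

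Wider peaks tended to have higher folds among the members. Over the 73 peaks the rank correlation of width and fold was 0.643 and Pearson's r 0.389, given as a description, since both are read from the same pileup in the same list. Peaks of at least 500 bp numbered 14 (19.2%, where the list had 15.7%) and included 5 of the 6 strong peaks. Neither this overlap nor the correlation was computed over the list, so neither is shown to be particular to the window. The rank correlation of background and fold was 0.0120 and Pearson's r 0.140, again as a description. The authors' q was 0.05 or more at 10 members (13.7%), where the list had 12.5%. Of these, 9 were among the 48 peaks of the PVT1 body (18.8%) and 1 was downstream of it. The lowest fold of the window, 2.06 (1.25 to 3.22), belonged to a peak 106 kb past the PVT1 start.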

How the data were processed

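The authors' deposited ELF5 peak list is on hg19, as its header and the submitters' processing notes say. The track name in the header carries the label IDR, without settings or the replicates used. No source used here names an aligner or a peak caller, or says what threshold was set, how the input was used and whether replicates were pooled. The authors' q runs up to 0.583 in the list. The deposited score equals the whole part of 10 times the −log10 p in all 115384 rows. The deposited −log10 p and −log10 q and the deposited fold (a ratio of ChIP to local background, with no unit in the file) were used as given. Total reads per sample are unknown here.

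Pileup and background were inferred from fold and p. With whole pileups scaled by 0.910 and a pseudocount of 1, a Poisson tail matched the p of each of the 115384 peaks to within 0.001 (−log10), and a second pileup also matched at 95 peaks. On 4842 simulated peaks, made with the same formula and another scaling, 100% of pileups were recovered. This checks the calculation and not what the authors' columns hold. Gene bounds come from the rule that defines the window. Positions count from 1. Bands are from circlize 0.4.16 (R 4.3.3), and calculations used Python 3.11.15 with scipy 1.17.1, numpy 2.4.6 and pandas 2.3.3, and figures matplotlib 3.10.9. The peaks named are all those within 10 kb of MYC or between MYC and PVT1, the nearest to each gene start, the 5 strongest of each other segment and the 10 strongest of the window. The peak of lowest fold was added after its value was seen. The members and lists were chosen with earlier results of these data known. Promoter and exon classes, motifs and sequences were not analysed here.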

Additional observations from a re-analysis of the deposited data

How the results depend on the processing

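Of 43 alternative values, 32 stayed near the main one and 11 moved. These are not all separate checks. Merging overlapping rows could change nothing, since the list has none, and the density of the window repeats its count over a fixed length. Calling the highest 5% or 20% strong changes the share by definition, so whether it left the interval says nothing about robustness. With the highest 5%, the window's share was 4.11%, where the list's was 5.01%. A count or density moved if it differed by over 1.5 times, and the share of strong peaks or the median fold if it left its 95% interval. In the list cut to −log10 q of at least 5, and likewise in the highest 50% of the list by fold, the window held 39 peaks in place of 73 (20.5 per Mb in place of 38.4), PVT1 23 in place of 48 and the sequence downstream of it 5 in place of 11, since these lists hold fewer peaks. PVT1 then held 59.0% of the window's peaks in both, in place of 65.8%, at 5.39 and 3.94 times the density of the same list in place of 4.13 times, and the upstream desert stood at 0.306 and 0.223 times in place of 0.140. Set beside the same list, the density of the window was 38.4 against 38.0 per Mb for all peaks, 33.2 against 33.3 with q under 0.05, 20.5 against 14.0 at −log10 q of 5 or more and 20.5 against 19.1 in the highest 50%. With the highest 20% of the list called strong, the window's share was 24.7%, above the 20.01% of the list, while with the highest 10% it was 8.22%, below the 10.0% of the list. Joining within 5 kb gave 34 regions and within 20 kb 13, in place of 22. With PVT1 bounds moved out by 1 kb the body held 49 peaks, the peak at its start included. No paired analysis was possible because single replicates have no values here, and for the same reason leaving out replicates was not run. A pileup near the window's median of 25 leaves most of its weaker peaks without an order among them.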
